A study of Mus musculus with 24 samples.

Results

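Collagen chains other than Col4a1, Col4a2 and Col18a1 were measured in retina of C57Bl/6 mouse pups by 53 probe sets for 33 genes, out of 22690 probe sets in the table. The members were all probe sets with 1 platform gene symbol that begins with Col, a number, the letter a and a number, and the 3 genes named above were left out. Total RNA was profiled on 24 arrays in 8 groups of 3. The hyperoxia groups were pups of postnatal days 7, 8, 10 and 12 kept in hyperoxia for 12, 24, 72 and 120 hours, and the room air groups were pups of the same 4 ages kept in room air. Age and time in hyperoxia therefore changed together. No allele, transgene or other agent is given for any group, and the labels give neither the oxygen level nor the number of animals per array. Nothing says that arrays of a group came from separate animals: the spread between samples behind every p-value here may be technical.

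Collagens are triple helices of alpha chains, secreted or membrane-bound, that build the extracellular matrix. Fibril-forming chains make the cores of fibrils, chains with interrupted helices sit on fibril surfaces, and other chains form basement membranes, beaded filaments or membrane proteins. In the eye, collagens II, IX and V/XI make the fibrils of the vitreous, and basement membrane chains underlie the retinal vessels, the inner limiting membrane and the pigment epithelium.

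Retinal markers were high on all arrays, and markers of other eye tissues varied between arrays. Marker levels below are mean log2 intensities over the tested genes of a list. The 8 of 12 tested retinal neuron and glia markers (among them Nrl, Crx and Rcvrn) lay between 13.2 and 13.7 on all 24 arrays. The lens list (12 of 16 genes tested, mostly crystallins) spanned 7.48 to 14.0 on hyperoxia arrays and 7.25 to 14.0 on room air arrays. The list of pigment epithelium and melanocytes (8 of 12 tested) spanned 9.07 to 11.8 on hyperoxia arrays and 9.20 to 11.4 on room air arrays. The fibroblast list (6 of 12 tested) spanned 8.92 to 9.87 on hyperoxia arrays and 8.98 to 9.79 on room air arrays. Its defining genes Dcn, Kera and Aspn had medians at the floor of 136.8, the value to which low intensities were raised, and Lum, Thbs2 and Dpt were under the filter. Dcn was at the floor on 14 arrays and reached 868 on 1 array. In whole tissue, fewer cells of a type and less RNA per cell cannot be told apart.

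Of the 53 collagen probe sets, 28 probe sets for 22 genes passed a filter on mean intensity over all arrays (240.6 in normalized units) and were tested. The other 25 were dim: 13 of them were at the floor on at least 12 arrays, 3 on all 24, and the highest single value among them was 551, for 1 of the Col4a6 probe sets. For 11 genes no probe set was tested. These were Col1a1 and Col5a2 of the fibril-forming class, Col9a2, Col12a1, Col16a1, Col19a1, Col20a1 and Col22a1 of the class with interrupted helices, Col4a4 and Col10a1 of the network class, and Col13a1 of the transmembrane class. Col5a2, at a mean log2 intensity of 7.88, was just under the threshold of 7.91, and Col26a1, at 8.09, was just above it. Levels are compared only within a probe set.

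**Figure D1:**
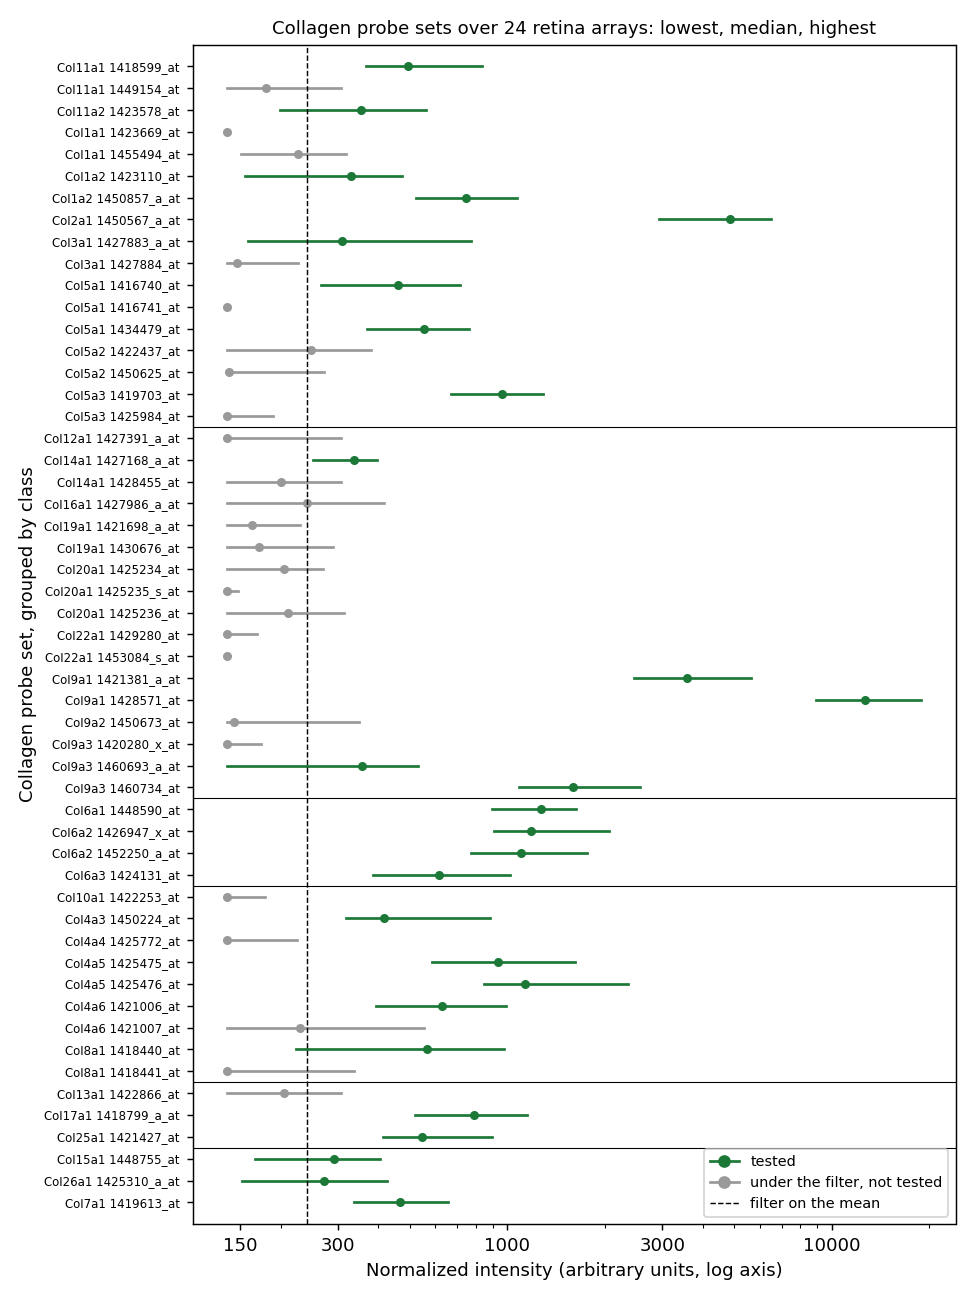
Normalized intensity (log axis, arbitrary units) of the 53 collagen probe sets, with the lowest, median and highest of 24 arrays as a line and a point, grouped by class from fibril-forming at the top through interrupted helices, beaded filament, network and transmembrane to other. Green probe sets were tested and grey ones were under the filter, whose threshold of 240.6 on the mean is the dashed line.

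Levels over the 24 arrays are given here for the genes named in each class. Col2a1, the main chain of cartilage and vitreous fibrils, spanned 2931 to 6483 over the 24 arrays, and Col9a1, a chain of the collagen that coats those fibrils, spanned 8962 to 18814 with 1 of its probe sets. Col5a3, a minor fibril-forming chain, spanned 668 to 1283 with 1 of its probe sets. Col9a3, a partner of Col9a1, spanned 1084 to 2565 with 1 of its probe sets. Among beaded filament chains, Col6a1 spanned 899 to 1629 and Col6a2 spanned 911 to 2061 with 1 of its probe sets. Among network chains, Col4a5 spanned 849.6 to 2352 and Col4a6 spanned 394 to 991, each with 1 of its probe sets. The tested transmembrane chains were Col17a1 (517 to 1147) and Col25a1 (414 to 898). Col7a1, which forms anchoring fibrils, spanned 336 to 654, and Col15a1, a basement membrane zone chain, spanned 166 to 403. Col3a1, a fibril-forming chain of vessel walls and connective tissue, spanned 159 to 770.0 with 1 of its probe sets.

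The first question was whether hyperoxia changed collagen chains at any age. Hyperoxia minus room air, 0 of the 28 tested probe sets passed the test (limma, Benjamini-Hochberg adjusted p under 0.05 over all 15838 tested probe sets) at day 7, 8, 10 or 12 or on the mean of the 4 days. Over all tested probe sets, 0.0631% passed at day 7, 0.0821% at day 8, 0.0631% at day 10 (0.00631% higher and 0.0568% lower), 0.0126% at day 12 and 0.492% on the mean (0.0189% higher and 0.474% lower), so the members' count is near the background. At an unadjusted p under 0.05, 1, 3, 3, 4 and 4 collagen probe sets passed in these 5 comparisons, in that order, or 3.57%, 10.7%, 10.7%, 14.3% and 14.3% of the 28, beside 3.17%, 4.92%, 10.9%, 8.73% and 8.95% of all tested probe sets. The median log2 difference of the 28 was -0.12 at day 7, -0.027 at day 8, -0.035 at day 10, 0.11 at day 12 and 0.0071 on the mean, against medians between -0.0037 and 0.010 over all tested probe sets. The difference was below 0 for 22 of the 28 at day 7, 15 at day 8, 15 at day 10 and 13 at day 12, or 78.6%, 53.6%, 53.6% and 46.4%, beside 47.2%, 49%, 50.6% and 50.8% of all tested probe sets. The 28 probe sets stand for 22 genes and are not independent. At day 7 the pigment list averaged 9.55 in hyperoxia and 10.1 in room air. The lens list averaged 10.9 and 11.4 there, and the fibroblast list 9.16 and 9.23, in the same order. With the pigment, lens or fibroblast level in the fit, 0 collagen probe sets were called at day 7. The part of these markers in the size of the day 7 differences was not tested further.

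Markers of vessel cells were lower on average in hyperoxia at every age on the same arrays. The endothelium list (9 of 9 genes tested) averaged 9.40, 9.29, 9.25 and 9.44 in hyperoxia at days 7, 8, 10 and 12, against 9.56, 9.60, 9.86 and 9.85 in room air. The pericyte list (5 of 8 tested) averaged 9.19, 9.06, 9.20 and 9.60 in hyperoxia at the 4 ages, against 9.31, 9.38, 9.85 and 9.94 in room air. Hyperoxia arrays lay below room air arrays without overlap at days 10 and 12 for both lists. The part of these markers in the collagen differences was not tested.

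On the mean of the 4 days, the log2 differences of the 28 probe sets lay between -0.49 and 0.17. The 95% intervals had a median half-width of 0.24 and reached from -0.93 to 0.43 at their extremes. For Col9a1 the intervals were -0.15 to 0.10 and -0.23 to 0.17 with its 2 probe sets, for Col17a1 -0.14 to 0.15, and for Col5a3 -0.17 to 0.19. By class, the median differences on the mean were -0.067 for 9 fibril-forming probe sets, -0.022 for 5 with interrupted helices, 0.10 for 4 beaded filament, 0.077 for 5 network, 0.0073 for 2 transmembrane and -0.21 for 3 other probe sets. The 2 probe sets of Col1a2 (-0.095 and 0.078), of Col5a1 (-0.14 and 0.069) and of Col4a5 (0.14 and -0.0071) had opposite signs, and all 6 intervals included 0.

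**Figure D2:**
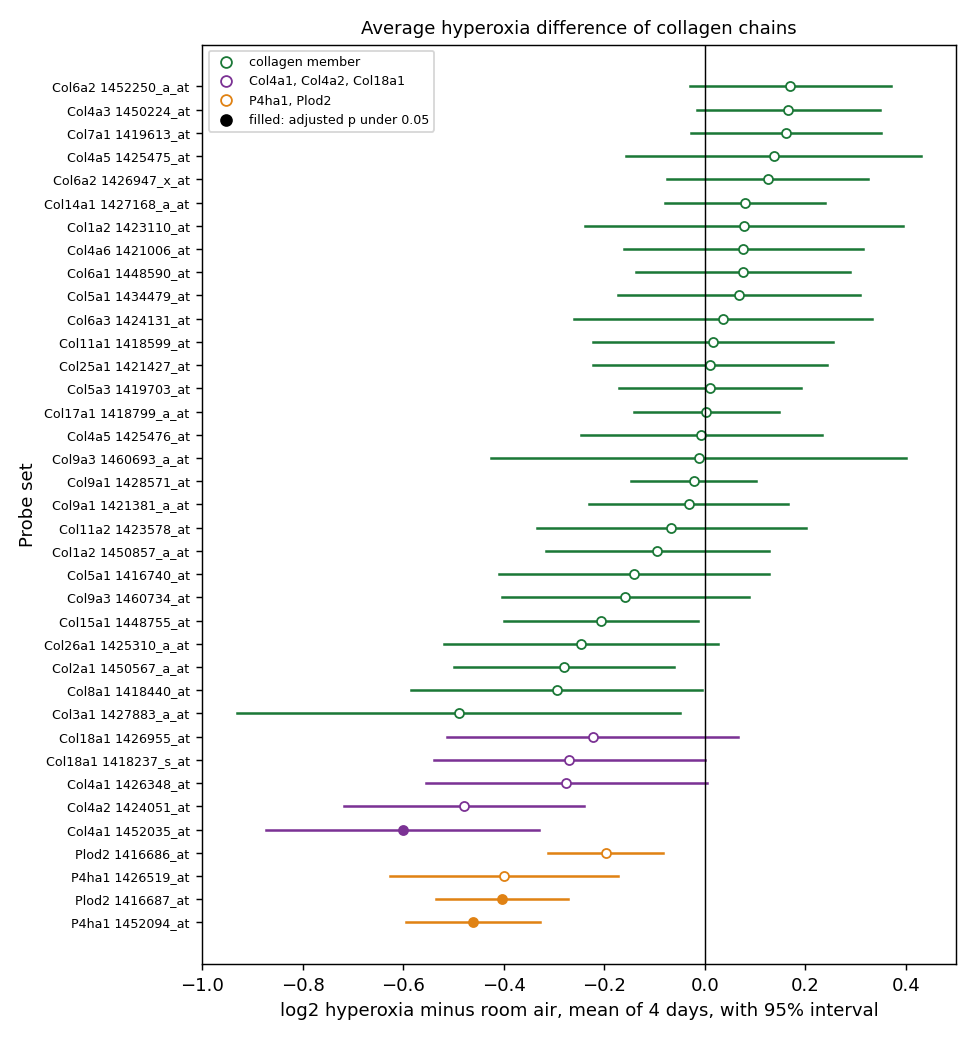
Log2 hyperoxia minus room air on the mean of 4 days (x axis) with 95% intervals for the 28 tested collagen probe sets (green), the 5 probe sets of Col4a1, Col4a2 and Col18a1 (purple) and 4 probe sets of the collagen hydroxylases P4ha1 and Plod2 (orange). Filled points passed the test; the 28 collagen points are all open and lie between -0.49 and 0.17.

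Col2a1 had the lowest p of the members on the mean of the 4 days. At day 10, its intensities were 3536, 3586 and 4015 in hyperoxia, against 4261, 5621 and 5372 in room air. At day 12, they were 3069, 5057 and 3556 in hyperoxia, against 2931, 5508 and 3571 in room air. The groups did not overlap at day 10 and overlapped almost fully at day 12. The difference was -0.28 ± 0.10 (SE) on the mean, with 3 arrays per group and an adjusted p of 0.40 (limma).

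Col3a1 had the difference farthest from 0 on the mean and at day 10. At day 10, its intensities were 218, 236 and 313 in hyperoxia, against 621, 545 and 358 in room air. All 3 hyperoxia arrays were below all 3 room air arrays at that age with this probe set. The other Col3a1 probe set was under the filter and at the floor on 10 arrays. At day 10 it read 136.8, 136.8 and 169 in hyperoxia, against 174, 181 and 136.8 in room air, with overlap. With the tested probe set, the log2 difference was -0.97 ± 0.42 at day 10 (adjusted p = 0.42, limma) and -0.49 ± 0.21 on the mean (adjusted p = 0.49, limma). At day 7 the values were 176, 396 and 159 in hyperoxia, against 272, 770.0 and 202 in room air, and the groups overlapped. Pigment and fibroblast marker levels moved with Col3a1 within groups, as described below. At day 10 the pericyte level averaged 9.20 in hyperoxia and 9.85 in room air, and the endothelium level 9.25 in hyperoxia and 9.86 in room air. The pigment level averaged 10.6 in both, and with it in the fit the day 10 difference was -0.94 (adjusted p = 0.20, limma). The fibroblast level averaged 9.20 in hyperoxia and 9.41 in room air, and with it in the fit the day 10 difference was -0.51 (adjusted p = 0.63, limma).

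Col8a1, a short network-forming chain of the corneal and vascular matrix, had its differences farthest from 0 at the 2 youngest ages. At day 8, its intensities were 517, 348 and 284 in hyperoxia, against 696, 590.1 and 612 in room air, without overlap. At day 7, they were 223, 469 and 261 in hyperoxia, against 341, 577 and 509 in room air, and the groups overlapped. The log2 differences were -0.62 ± 0.28 at day 7, -0.77 ± 0.28 at day 8, 0.28 ± 0.28 at day 10 and -0.065 ± 0.28 at day 12, and none passed the test (limma). The other Col8a1 probe set was under the filter and at the floor on 16 arrays. The pigment level spanned 9.84 to 9.96 in hyperoxia and 10.0 to 10.4 in room air at day 8, and with it in the fit the day 8 difference was -0.56. At day 7 the pigment level averaged 9.55 in hyperoxia and 10.1 in room air. Within groups, the slope of Col8a1 on it was 0.54 ± 0.11. With the pigment level in the fit the day 7 difference did not pass either, and its part in the size of that difference was not tested further. Col26a1, an emilin-related collagen, had 172, 251 and 165 in hyperoxia at day 8, against 426, 273 and 207 in room air, with overlap, a difference of -0.59 ± 0.26 and an adjusted p of 0.96 (limma).

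Col15a1, a chain of the outer basement membrane zone of vessels and other tissues, was among the 3 members of lowest p in all 5 hyperoxia comparisons. Its difference was above 0 at day 8 and below 0 at days 7, 10 and 12. No collagen probe set passed the test of any difference among the days (F test in limma). At day 12, its intensities were 243, 202 and 176 in hyperoxia, against 283, 312 and 295 in room air, without overlap. At day 8, they were 251, 319.7 and 375 in hyperoxia, against 166, 298 and 262 in room air, with overlap. The log2 differences were -0.30 at day 7, 0.40 at day 8, -0.40 at day 10 and -0.53 at day 12 (SE 0.19 at each age), and the adjusted p was 0.44 at day 12 (limma). Its lowest array, at 166, was room air replicate 1 of day 8 and was near the floor of 136.8. Leaving out 1 array at a time, the day 8 difference lay between 0.16 and 0.58.

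Col4a3, a chain of the collagen IV network that is distinct from the vessel chains Col4a1 and Col4a2, had the lowest p of any member in a hyperoxia comparison. At day 12, its intensities were 559.9, 882 and 854 in hyperoxia, against 361, 450.5 and 538 in room air. The lowest hyperoxia array was above the highest room air array. The difference was 0.76 ± 0.17 (adjusted p = 0.30, limma), and without hyperoxia replicate 1 of day 12 it was 0.97 and passed (adjusted p = 0.045, limma). The lens level on the same 3 hyperoxia arrays was 7.82, 13.8 and 14.0, against 7.25, 11.2 and 14.0 on the room air arrays, so that within each condition the array with the least lens RNA had the lowest Col4a3. With the lens level in the fit the difference was 0.69 (adjusted p = 0.14, limma). Same-numbered day 12 arrays correlated, but the labels do not say what a number marks. With the numbers as a block within day 12, added after seeing the data, the difference was 0.76 ± 0.13 (adjusted p = 0.070, limma). Differences at days 7, 8 and 10 were -0.14, 0.035 and 0.013.

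Col6a2, a chain of the beaded filaments around cells, was the third member of lowest p at day 12. One of its probe sets read 1551, 2061 and 1438 in hyperoxia, against 1203, 1289.7 and 1059 in room air, and the other read 1290.0, 1753 and 1558, against 1167, 1139 and 997. Neither pair of groups overlapped. The differences were 0.49 ± 0.19 and 0.47 ± 0.19, with adjusted p of 0.49 and 0.51 (limma). With the dimmer Col9a1 probe set at day 7, hyperoxia arrays read 2459, 2787 and 2974, against 3746, 3358 and 3593 in room air, without overlap, and the difference was -0.38 ± 0.19 (adjusted p = 1.00, limma). With the other Col9a1 probe set at day 7, they read 8962, 12185 and 9741, against 11169, 11359.8 and 11743 in room air, and the groups overlapped.

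The next question was whether the effect of hyperoxia differed between ages. For the effect at day 12 minus that at day 7, 0 of 28 collagen probe sets and 0% of all 15838 passed, and 1 collagen probe set and 983 of all had an unadjusted p under 0.05 (limma). For any difference among the 4 days (F test in limma), again 0 of 28 and 0% of all passed, with 2 collagen probe sets and 1038 of all at an unadjusted p under 0.05. Col4a3 had an effect at day 12 minus day 7 of 0.89 ± 0.25 (adjusted p = 0.64, limma).

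**Figure D3:**
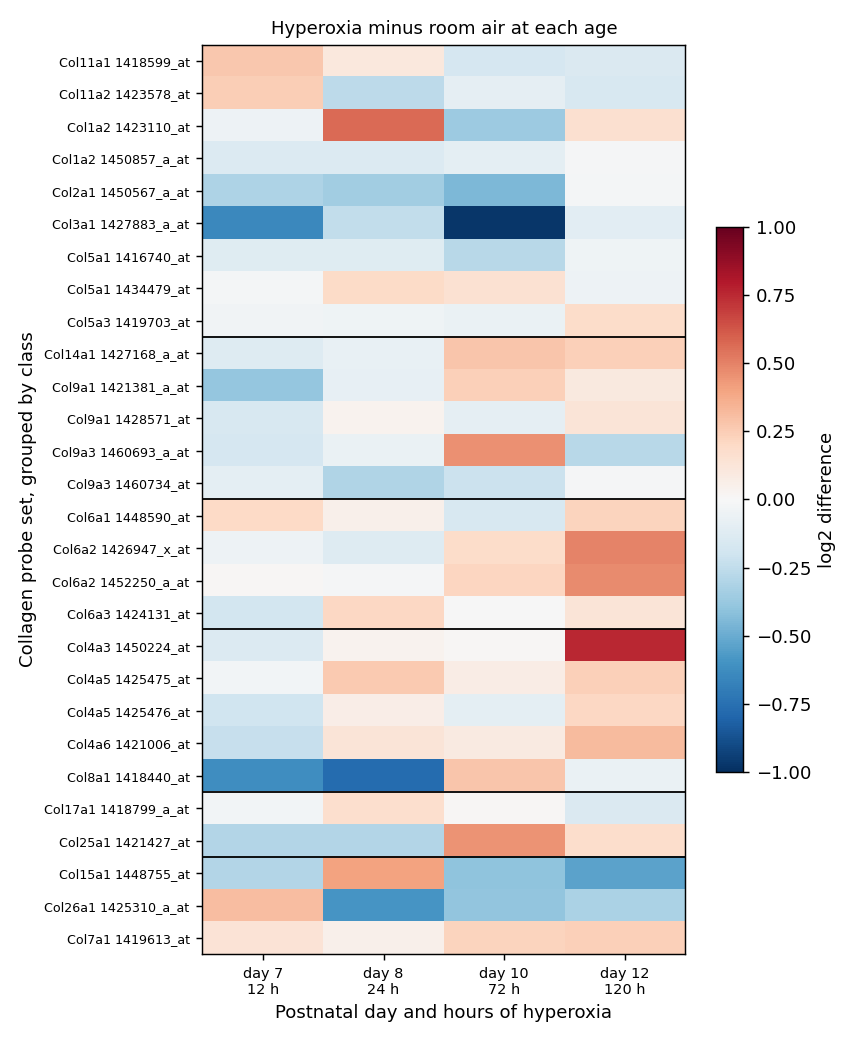
Log2 hyperoxia minus room air (colour; red higher in hyperoxia, blue lower) of the 28 tested collagen probe sets at postnatal days 7, 8, 10 and 12, with the hours of hyperoxia below each day and lines between classes. Col4a3 at day 12 (0.76) and Col3a1 at day 10 (-0.97) stand at the extremes, and no cell passed the test.

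The left-out vessel chains were read in the same fit. For Col4a1, a main chain of vessel basement membranes, 1 probe set fell with hyperoxia on the mean of the 4 days by 0.60 on the log2 scale (SE 0.13, adjusted p = 0.040, limma) and the other was at -0.28 ± 0.13 (adjusted p = 0.57, limma). Leaving out 1 array at a time gave differences between -0.69 and -0.53 and adjusted p up to 0.095 (limma), and the call was kept in 5 of 24 such fits, those without replicate 3 of day 7, 1 of day 8 or 3 of day 12 in hyperoxia, or replicate 3 of day 8 or 2 of day 10 in room air. Col4a2, its partner chain, was at -0.48 ± 0.11 (adjusted p = 0.078, limma), and passed in 3 of the 24 fits, without room air replicate 3 of day 8 (-0.52), room air replicate 2 of day 10 (-0.53) or hyperoxia replicate 3 of day 12 (-0.54). Col18a1, the source of endostatin, was at -0.27 ± 0.13 and -0.22 ± 0.14. The endothelium and pericyte levels given above were lower on average in hyperoxia at every age, and their part in the fall of Col4a1 was not tested. No test of the members against these 3 genes was made.

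Age was compared as day 12 minus day 7. On the mean of both conditions, 8 of the 28 tested probe sets (28.6%) passed, 5 higher and 3 lower at day 12, against 23% of all 15838 probe sets (11.4% higher and 11.6% lower), a share near the background. Their median log2 difference was 0.12, against -0.032 over all tested probe sets. In hyperoxia, 6 of 28 passed (5 higher, 1 lower), against 12.6% of all (5.95% higher and 6.64% lower), and without replicate 1 of day 7 the count was 3. In room air, 2 of 28 passed (1 higher, 1 lower), against 12.4% of all (7.16% higher and 5.21% lower). The 2 conditions were not shown to differ, since 0 probe sets passed the test of that difference. The pigment level moved with age: it spanned 10.5 to 11.8 at day 12 against 9.07 to 10.2 at day 7 in hyperoxia, and 10.6 to 11.4 at day 12 against 9.20 to 11.0 at day 7 in room air. Other lists moved too. From day 7 to day 12 in hyperoxia, the retinal list averaged 13.2 and 13.6, the fibroblast list 9.16 and 9.51, and the pericyte list 9.19 and 9.60. In room air they averaged 13.3 and 13.6, 9.23 and 9.53, and 9.31 and 9.94. The lens list rose on average in hyperoxia only (10.9 and 11.9, against 11.4 and 10.8 in room air), and the red blood cell list in room air only. With the pigment level in the fit, 3 of the 8 probe sets passed, those of Col17a1 and Col2a1 and 1 of the 2 of Col9a1. With the fibroblast level in the fit, 5 of the 8 passed. The part of the marker levels in the age differences was not tested further.

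Col17a1, a transmembrane collagen of the hemidesmosome, which anchors epithelia to the basement membrane, fell with age. Its intensities were 578, 517 and 531 at day 12 in hyperoxia, against 957, 1147 and 881 at day 7, and 635, 548 and 617 at day 12 in room air, against 925, 992 and 1115 at day 7. Every day 12 array was below every day 7 array. From day 7 through days 8, 10 and 12, the group means were 995 ± 137, 982 ± 104, 725 ± 71.8 and 542 ± 31.8 in hyperoxia and 1011 ± 96.1, 876 ± 140, 719.7 ± 91.1 and 599.8 ± 46.2 in room air (SD, n = 3 each). Day 12 minus day 7, it fell by 0.87 on the log2 scale in hyperoxia (SE 0.14, adjusted p = 2.7e-04, limma), by 0.75 in room air (SE 0.14, adjusted p = 9.6e-04, limma) and by 0.81 on their mean (SE 0.097, adjusted p = 4.0e-06, limma). The call held in all 24 fits that left out 1 array.

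Col9a1 rose with age with both probe sets. With 1 of them, intensities were 16412, 15759 and 18814 at day 12 in hyperoxia, against 8962, 12185 and 9741 at day 7, and 14581, 18005 and 14114 at day 12 in room air, against 11169, 11359.8 and 11743 at day 7. Day 12 arrays were above day 7 arrays in both conditions. The difference was 0.73 ± 0.12 in hyperoxia (adjusted p = 3.5e-04, limma), 0.44 ± 0.12 in room air (adjusted p = 0.019, limma) and 0.58 ± 0.084 on their mean (adjusted p = 3.4e-05, limma). In room air it did not pass without replicate 1 of day 7 (0.42, adjusted p = 0.059) or replicate 2 of day 12 (0.33, adjusted p = 0.11). With the other probe set, the difference was 0.75 ± 0.19 in hyperoxia (adjusted p = 0.012, limma), 0.27 in room air (not passed) and 0.51 ± 0.13 on their mean (adjusted p = 0.0084, limma). In hyperoxia this call was lost without replicate 1 of day 7 (0.67), replicate 2 of day 12 (0.60) or replicate 3 of day 12 (0.66).

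Col8a1 also rose with age. Its intensities were 563, 526 and 977 at day 12 in hyperoxia, against 223, 469 and 261 at day 7, and 566, 910.4 and 642 at day 12 in room air, against 341, 577 and 509 at day 7. The ages did not overlap in hyperoxia and overlapped in room air. The difference was 1.14 ± 0.28 in hyperoxia (adjusted p = 0.0095, limma), 0.58 ± 0.28 in room air (adjusted p = 0.20, limma) and 0.86 ± 0.20 on their mean (adjusted p = 0.0030, limma). The hyperoxia call was lost without replicate 1 of day 7 (0.92) or replicate 3 of day 12 (0.85). With the pigment level in the fit the mean difference was 0.30 (adjusted p = 0.30, limma), and with the fibroblast level it was 0.54 (adjusted p = 0.096, limma).

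**Figure D4:**
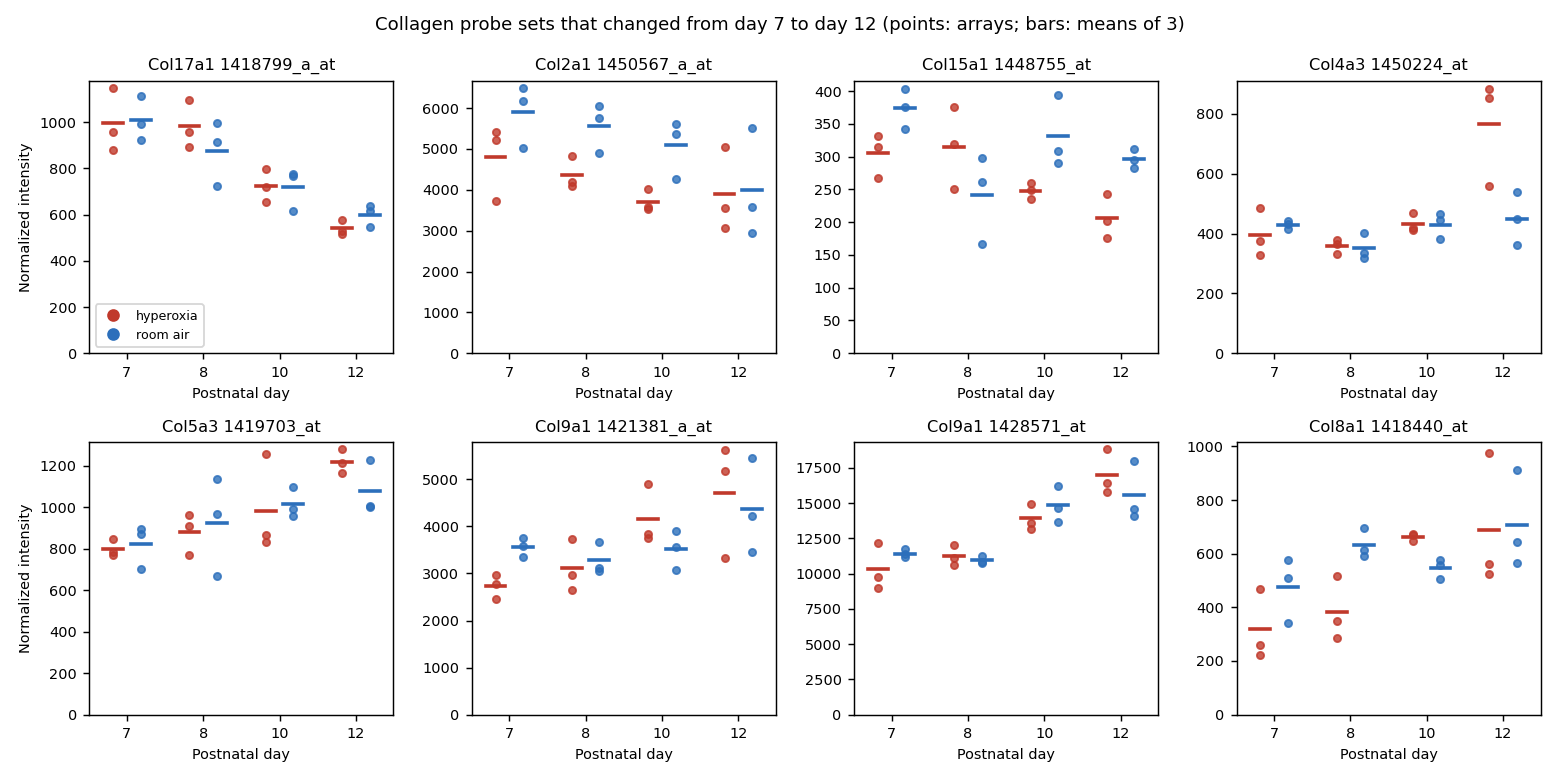
Normalized intensity (linear axes from 0) of the 8 collagen probe sets that passed day 12 minus day 7 on the mean of both conditions, by postnatal day, with hyperoxia arrays in red left of room air arrays in blue; points are arrays and bars are means of 3. Col17a1 falls to 542 in hyperoxia and 599.8 in room air at day 12, and 1 Col9a1 probe set reaches up to 18814.

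Promoter sequences of Col17a1, Col9a1 and Col8a1, the 3 members of lowest p with age on the mean of both conditions, are shown. The motifs searched can be read against them. The sequences come from RefSeq (GRCm38.p6) and run 5′ to 3′ on the gene's strand over 250 bases before and 50 bases after the annotated start. Of the 33 member genes, 24 matched a sequence. Capitals mark matches on either strand to a TATA box (TATAAA), a GC box (GGGCGG) or a hypoxia response core (ACGTG); a SOX core (ACAAT) was searched too and is absent from these letters. The Col17a1 sequence is chr19:47691993-47692292 (minus strand), that of Col8a1 chr16:57754688-57754987 (minus strand), and those of the upstream and downstream starts of Col9a1 chr1:24177360-24177659 and chr1:24194953-24195252 (both plus strand).
Col17a1: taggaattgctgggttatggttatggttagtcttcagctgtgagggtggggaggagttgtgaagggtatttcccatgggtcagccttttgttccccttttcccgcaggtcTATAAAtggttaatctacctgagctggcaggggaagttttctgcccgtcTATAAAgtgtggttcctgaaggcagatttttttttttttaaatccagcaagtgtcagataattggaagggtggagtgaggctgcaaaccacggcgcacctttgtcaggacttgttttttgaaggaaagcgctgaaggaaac
Col8a1: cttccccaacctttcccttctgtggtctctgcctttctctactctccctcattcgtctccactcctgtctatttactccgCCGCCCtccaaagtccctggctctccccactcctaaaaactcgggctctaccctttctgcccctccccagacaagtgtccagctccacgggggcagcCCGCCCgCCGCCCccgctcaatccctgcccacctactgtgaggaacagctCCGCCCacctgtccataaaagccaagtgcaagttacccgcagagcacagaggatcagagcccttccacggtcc
Col9a1 upstream start: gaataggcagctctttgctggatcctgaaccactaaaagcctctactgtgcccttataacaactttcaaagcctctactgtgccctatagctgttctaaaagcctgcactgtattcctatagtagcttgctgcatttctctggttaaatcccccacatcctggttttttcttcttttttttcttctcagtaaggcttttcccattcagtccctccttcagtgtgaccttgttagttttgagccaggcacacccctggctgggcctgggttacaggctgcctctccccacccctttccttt
Col9a1 downstream start: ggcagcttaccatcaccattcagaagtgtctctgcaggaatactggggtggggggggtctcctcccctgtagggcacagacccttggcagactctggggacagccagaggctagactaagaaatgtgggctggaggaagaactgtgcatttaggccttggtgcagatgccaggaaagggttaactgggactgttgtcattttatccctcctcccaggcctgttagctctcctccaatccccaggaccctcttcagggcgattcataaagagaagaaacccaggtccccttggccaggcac

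The Col17a1 window held TATAAA 140 and 91 bases before the start, and the Col8a1 window held 4 GC boxes on the opposite strand, 170, 73, 66 and 23 bases before it. Neither Col9a1 window held any of the 4 motifs. Among all 32851 promoters of the table, TATAAA was in 13.6%, GGGCGG in 35.7%, ACGTG in 19.6% and ACAAT in 31%. These matches describe letters only. ACGTG and its reverse complement CACGT overlap where CACGTG occurs.

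The other 4 age calls on the mean of both conditions had differences between -0.46 and 0.50. Col4a3 read 559.9, 882 and 854 at day 12 in hyperoxia, against 328, 375 and 486 at day 7, and rose there by 0.94 ± 0.17 (adjusted p = 0.0011, limma). In room air it read 361, 450.5 and 538 at day 12, against 432, 415 and 443 at day 7, with overlap, and the mean difference of both conditions was 0.49 ± 0.12 (adjusted p = 0.0057, limma). Col4a3 thus differed with age in hyperoxia without overlap, while the test of the difference between the conditions did not pass. Col5a3 read 1216, 1283 and 1165 at day 12 in hyperoxia, against 771, 849 and 784 at day 7, and 1005, 1229 and 1002 at day 12 in room air, against 702, 873 and 895 at day 7. Both sets of arrays were without overlap, and Col5a3 rose by 0.50 ± 0.12 on the mean (adjusted p = 0.0052, limma). Its call in hyperoxia alone (0.61 ± 0.17, adjusted p = 0.025, limma) was lost without replicate 1 (0.58) or 3 (0.59) of day 7 or replicate 1 (0.61) or 2 (0.57) of day 12.

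Col15a1 and Col2a1 were lower at day 12. Col15a1 read 243, 202 and 176 at day 12 in hyperoxia, against 267, 315 and 332 at day 7, and 283, 312 and 295 at day 12 in room air, against 342, 375 and 403 at day 7, without overlap, and fell by 0.45 on the mean (SE 0.13, adjusted p = 0.017, limma). Col2a1 read 3069, 5057 and 3556 at day 12 in hyperoxia, against 3736, 5423 and 5227 at day 7, and 2931, 5508 and 3571 at day 12 in room air, against 5018, 6483 and 6177 at day 7. One day 12 array in each condition lay among the day 7 arrays. Col2a1 fell by 0.46 on the mean (SE 0.15, adjusted p = 0.030, limma), and this call was kept in 16 of 24 fits that each left out 1 array. It was lost without replicates 2 (-0.41) or 3 (-0.42) of day 7 in hyperoxia, 2 (-0.42) or 3 (-0.44) of day 7 in room air, 1 (-0.38) or 3 (-0.43) of day 12 in hyperoxia, or 1 (-0.36) or 3 (-0.43) of day 12 in room air. It was also lost with no filter on low values (adjusted p = 0.0503, limma) and with only the arrays of the groups compared (adjusted p = 0.10, limma). Of the other tested chains of collagens V, IX and XI, Col9a1 and Col5a3 rose as given above, while Col5a1, Col11a1, Col11a2 and Col9a3 were not called. Col11a1 was at -0.025 ± 0.16 and Col9a3 at 0.048 ± 0.17 and 0.029 ± 0.28.

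By class on the mean of both conditions, the fibril-forming chains had 1 probe set higher and 1 lower of 9, those with interrupted helices 2 higher of 5, the network chains 2 higher of 5, the beaded filament chains 0 of 4, the transmembrane chains 1 lower of 2 and the others 1 lower of 3. The class medians were 0.17, 0.048, 0.36, 0.20, -0.57 and 0.069 in that order.

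A list of 50 genes that make, bind or break down collagen was read beside the members; 33 of them had tested probe sets. With hyperoxia on the mean of the 4 days, 2 of the 63 tested probe sets of the list passed, beside 0.492% of all (0.474% lower), both lower and each of 1 gene: P4ha1, the catalytic subunit of the prolyl hydroxylase that stabilises the collagen helix, and Plod2, a lysyl hydroxylase that prepares collagen for cross-linking. The other 31 did not pass, and 0 of the 33 passed on a single day (limma).

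The P4ha1 probe set that passed had hyperoxia intensities of 929 to 1254 over the 12 arrays, with a median of 1094, against 1282 to 1779 in room air, with a median of 1515. No hyperoxia array reached the lowest room air array. It fell by 0.46 on the log2 scale (SE 0.064, adjusted p = 6.3e-04, limma), and its other probe set was at -0.40 ± 0.11 (adjusted p = 0.16, limma). The Plod2 probe set that passed had 532 to 743 in hyperoxia, with a median of 605, against 606 to 947 in room air, with a median of 839. Its groups did not overlap at any of the 4 ages. It fell by 0.40 (SE 0.063, adjusted p = 0.0020, limma), and its other probe set was at -0.20 ± 0.055 (adjusted p = 0.17, limma). Both calls held in all 24 fits that left out 1 array. No promoter sequence was available for Plod2. The P4ha1 promoter, chr10:59323046-59323345 (plus strand, RefSeq, GRCm38.p6), is shown. Its window holds the hypoxia response core searched above, for which only the letters ACGTG and their reverse complement were searched. That core was in 19.6% of all promoters, and its part in the fall of P4ha1 was not tested. Capitals mark the motifs.
P4ha1: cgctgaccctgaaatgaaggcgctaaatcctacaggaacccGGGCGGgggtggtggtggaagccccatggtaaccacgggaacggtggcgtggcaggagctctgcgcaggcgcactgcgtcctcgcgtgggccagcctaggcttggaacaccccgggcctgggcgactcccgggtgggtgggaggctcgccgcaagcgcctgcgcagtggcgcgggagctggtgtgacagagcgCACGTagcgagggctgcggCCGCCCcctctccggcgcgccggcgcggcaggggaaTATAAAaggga

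The P4ha1 window held CACGT 16 bases before the start, GC boxes 209 bases before and 3 bases after it, and TATAAA 39 bases after it.

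With age on the mean of both conditions, 24 of the 63 tested probe sets of the list passed, 13 higher and 11 lower at day 12, beside 23% of all probe sets (11.4% higher and 11.6% lower). By gene, 5 of 33 were higher and 7 lower with at least 1 probe set, and 21 were not called. The higher genes were Timp3 and Timp2, inhibitors of matrix metalloproteinases, Mmp9, a gelatinase, Fmod, a proteoglycan that binds collagen fibrils, and Sparc, a collagen-binding matricellular protein. Timp3 rose by 0.56 to 1.86 over its 4 tested probe sets, Fmod by 1.03 with 2 of 3, and Mmp9 by 0.79 and 0.76. The lower genes were Mmp2 and Mmp14, proteases of the matrix and cell surface, Ppib and Serpinh1, a prolyl isomerase and a chaperone of collagen folding, Ddr1, a collagen receptor kinase, Loxl4, a cross-linking enzyme, and Plod2. Mmp2 fell by 0.94 and 0.48, Serpinh1 by 0.43 and 0.29 and Ppib by 0.66 and 0.36. Fmod is also in the fibroblast list, and 1 of 8 Ddr1 probe sets, 1 of 2 of Plod2 and 1 of 2 of Sparc carried those genes' calls.

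Within groups, some collagen chains moved with the tissue markers. In a fit of all tested probe sets on the 8 groups and 1 marker level, the slope on the pigment level was above 0 and passed for 2 of 28 collagen probe sets, Col3a1 at 0.87 ± 0.15 (log2 per log2 unit of the marker level, adjusted p = 0.0074, limma) and Col8a1 at 0.54 ± 0.11 (adjusted p = 0.035, limma), against 0.221% of all probe sets. The Col3a1 call was kept in 23 of 24 fits that left out 1 array, and was lost without room air replicate 2 of day 7 (0.73, adjusted p = 0.13). The Col8a1 call was kept in 10 of 24, with slopes of 0.47 to 0.61 and adjusted p up to 0.17; it was lost without any 1 of the 6 day 12 arrays, 5 of the 6 day 7 arrays (all but room air replicate 3), room air replicate 3 of day 8, or replicate 2 of day 10 in either condition. On the fibroblast level, Col3a1 passed (2.16 ± 0.41, adjusted p = 0.048, limma; 0.114% of all), in 5 of 24 such fits, with slopes of 1.79 to 2.36 and adjusted p up to 0.37; those 5 were the fits without replicate 3 of day 7 in either condition, replicate 1 or 2 of day 8 in hyperoxia, or replicate 3 of day 12 in room air. At an unadjusted p under 0.05, 9 of 28 (32.1%) had a pigment slope, beside 6.17% of all tested probe sets. For the fibroblast slope these were 10 of 28 (35.7%), beside 4.6% of all. Slopes were below 0 for 10.7% of the 28 on the pigment level and 14.3% on the fibroblast level, beside 49.7% and 50.3% of all. On the lens level, 0 of 28 passed against 0.196% of all. At an unadjusted p under 0.05, 6 of 28 (21.4%) had a lens slope, beside 5.69% of all tested probe sets, among them Col6a3, a beaded filament chain, at 0.12 ± 0.025 (adjusted p = 0.064, limma), and Col4a3 at 0.068 ± 0.016 (adjusted p = 0.19, limma). Col6a3 passed without room air replicate 1 or 2 of day 7 or hyperoxia replicate 1 of day 8.

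The 4 arrays with the highest Col3a1 were also the 4 with the highest Dcn, a proteoglycan of connective tissue. Dcn was 868 on hyperoxia replicate 3 of day 12, where Col3a1 was 696. In room air it was 659 on replicate 2 of day 7, 483 on replicate 2 of day 12 and 427 on replicate 1 of day 10, where Col3a1 was 770.0, 653 and 621. Dcn was under the filter and is not in the fibroblast level of the fits, and its part in the Col3a1 differences was not tested.

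**Figure D5:**
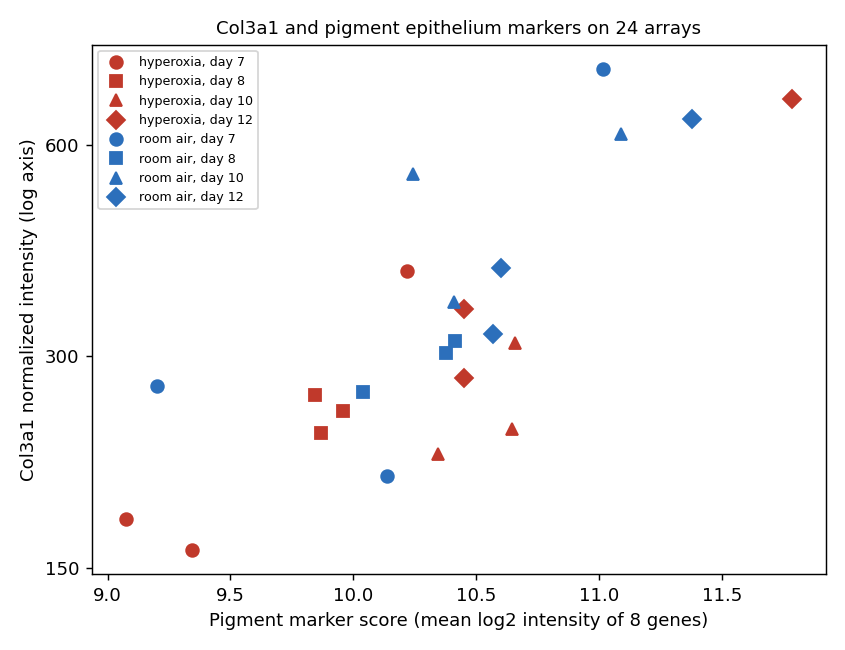
Col3a1 normalized intensity (log axis) against the pigment marker level (mean log2 intensity of 8 genes) on 24 arrays, hyperoxia in red and room air in blue, with a marker shape per postnatal day. Col3a1 spans 159 to 770.0 and the marker level 9.07 to 11.8, and the slope within groups was 0.87.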

How the data were processed

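The deposited table gives 1 linear intensity per probe set and array, scaled by the authors as the values show: array means trimmed by 2% at each end lay between 1500.35 and 1500.4, and medians between 570.2 and 679.7. No label or header names the software or the probe summary, and scanner files were not analysed here. The number of arrays limits the precision.

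Intensities were quantile normalized, raised to a floor at the 20th percentile (136.8) and taken to log2. The 64 control probe sets and probe sets with a mean under the 30th percentile were left out, so 15838 were tested. One limma fit (version 3.58.1, R 4.3.3) of 8 group means, with 16 residual and 3.55 prior degrees of freedom, gave all 10 comparisons. Comparisons share arrays. A probe set was called where its p, adjusted over all tested by Benjamini-Hochberg, was under 0.05. Errors are standard errors of the fit, unless SD is written. The procedure was tested on simulated data.

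The members, gene lists and tests were chosen with earlier results of these data known. Genes were named by rule: members called anywhere, the 3 of lowest p in each hyperoxia comparison, the 2 of each class with the highest mean intensity (a rule of choice, not a comparison of amounts), probe sets of a named gene that disagree, the left-out chains, and called genes of the collagen list. Alternatives were the deposited scaling, other floors (5th and 40th percentile) and filters (none and 50th percentile), 1 probe set per gene, the replicate number as a block (over all days, and within day 12), a robust prior, marker levels as covariates, only the groups compared, and leaving out arrays. Macrophage (6 of 7 genes tested), skeletal muscle (2 of 8) and red blood cell (1 of 5) marker lists were computed too. The macrophage list spanned 9.45 to 9.78 in hyperoxia and 9.33 to 10.0 in room air, the muscle list 7.82 to 8.73 in hyperoxia and 8.24 to 8.93 in room air, and the red blood cell list 7.10 to 9.21 in hyperoxia and 8.65 to 9.93 in room air. Figures were drawn with matplotlib 3.10.9 (Python 3.11.15).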

Additional observations from a re-analysis of the deposited data

How the results depend on the processing

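Under all alternatives run, 0 collagen probe sets were called for hyperoxia at days 7, 8 and 10, on the mean of the 4 days or for the differences between ages; at day 12 leaving out 1 array gave 0 to 1. For age on the mean of both conditions, 8 were called; with no filter and with only the groups compared there were also 8, but Col2a1 was lost and Col4a4 or Col26a1 gained; the filter at the 50th percentile, which removes Col4a3, Col8a1 and Col15a1 from the test, gave 5, the pigment level as a covariate 3, the fibroblast level 5, and leaving out 1 array 7 to 10. In hyperoxia (6 called), the pigment level gave 3, the fibroblast level 3, only the groups compared 2 and leaving out 1 array 3 to 7, the lowest without replicate 1 of day 7. In room air (2 called), the pigment level gave 1, only the groups compared 1, leaving out 1 array 2 to 3, and leaving out the 2 arrays farthest from their groups, chosen after seeing the data, 4. For the lens slope (0 called), 1 probe set per gene gave 1 and leaving out 1 array 0 to 1. For the pigment slope (2 called), no filter gave 1, the 50th percentile filter 0, without the 2 arrays 1, and leaving out 1 array 0 to 2, the lowest without room air replicate 2 of day 7. For the fibroblast slope (1 called), the floor at the 5th percentile gave 0, at the 40th 2, the 50th percentile filter 0, without the 2 arrays 0, and leaving out 1 array 0 to 1. Col15a1 with hyperoxia at days 8 and 12 was 0 with the floor at the 40th percentile, where its values lie at the floor. Except where the fewer probe sets or arrays of an alternative show it, the cause was not tested.

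With the replicate number of the labels as a replicate block, 8 were called with age on the mean, 8 in hyperoxia and 3 in room air, and 0 in every hyperoxia comparison. Same-numbered hyperoxia and room air arrays had correlations of -0.31 to 0.45, with 5 of 12 pairs over 0.1 and 5 of 12 hyperoxia arrays closest to their own number. The labels do not say what a number marks, and over all days the numbers do not pair the arrays. At day 12, all 3 pairs were over 0.1 (0.23 to 0.45); with the replicate block within day 12, added after seeing the data, 0 collagen probe sets were called there, with 4 at an unadjusted p under 0.05. The deposited scaling moved the median of all probe sets by 0.012.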
